A study of Arabidopsis thaliana with 21 samples.

Results

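AT5G48430 is an Arabidopsis gene of the aspartyl protease family, carried on chromosome 5. It is 1 of 16411 genes that had a probe set of their own with a gene name, and it had 1 such probe set. Its level was followed in 21 arrays of roots that were fixed before and during parabolic flight. Earlier results of the same arrays had shown it to be low against level flight, and it was picked for that pattern. Its levels and its differences from level flight are therefore given as a description, with intervals but without a test.

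Aspartyl proteases of this family (the pepsin-like A1 family) cut proteins with a pair of aspartate residues in the active site. Plant members are mostly made with a signal peptide and act in the secretory pathway, the vacuole or the cell wall space, and members of the Arabidopsis family are known from disease resistance, pollen and embryo survival. Some relatives, such as the TAXI proteins of wheat, act instead as inhibitors of microbial xylanases.

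All samples were roots of wild-type Wassilewskija (WS) seedlings, 12 days old, grown in 24 h light and flown on a C-9 aircraft, which alternates phases of raised and near-zero gravity. Level flight roots were fixed 1 min before the first parabola, parabola 1 start roots at the pitch-up into the climb, midpoint tube A and midpoint tube B roots at the passage into microgravity by different crew members, and parabola 1 end, parabola 3 end and parabola 10 end roots when those parabolas closed. Each of the 7 groups had 3 arrays, and the labels state that replicates of a condition came from seedlings of a single Kennedy Space Center Fixation Tube, a hand-operated device that floods the plants with RNAlater. A stage and its tube therefore cannot be told apart, and every spread given here is that between root pools of a tube. Values are log2 expression after robust multi-array averaging (RMA), a normalization that gives all arrays nearly the same distribution. Array medians lay between 2.92 and 3.04, and the number of arrays limits the precision.

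AT5G48430 was brightest in level flight and lower in every tube fixed later. In level flight its log2 level was 6.20, 6.26 and 6.26 in the 3 root pools. At parabola 1 start it was 5.07, 5.53 and 5.51. At the midpoint it was 5.36, 5.19 and 5.14 in tube A and 5.46, 4.90 and 4.83 in tube B. The early tubes thus lay close together, all below the 3 level flight pools. At parabola 1 end the level was 4.24, 3.94 and 3.95, and at parabola 3 end it was 4.35, 4.39 and 3.81. At parabola 10 end it was 4.93, 5.07 and 4.50. The ends of parabolas 1 and 3 held the 6 lowest arrays of the series, and the end of parabola 10 lay above them again without reaching level flight.

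**Figure D1:**
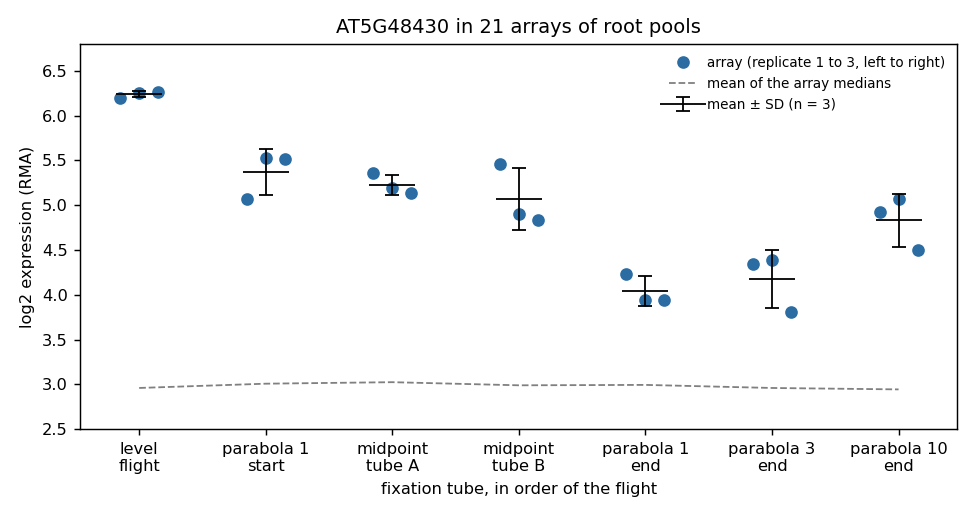
AT5G48430 log2 expression (y axis) in each of the 7 fixation tubes in flight order (x axis). Points are the 3 arrays of a tube, black bars the mean and SD (n = 3), and the dashed line the mean of the array medians. The level flight arrays sit between 6.20 and 6.26, above all others, and the parabola 1 end and parabola 3 end arrays are the lowest, between 3.81 and 4.39.

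The tube means formed a high, a middle and a low tier. Level flight stood alone at 6.24 ± 0.03 (SD, n = 3, as for each mean here). Next came parabola 1 start at 5.37 ± 0.26, midpoint tube A at 5.23 ± 0.11, midpoint tube B at 5.07 ± 0.35 and parabola 10 end at 4.83 ± 0.30. Neighbours within this middle tier differed by 0.14 to 0.23, and the ranges of their arrays overlapped. Its outer members were apart: parabola 10 end did not overlap with parabola 1 start or midpoint tube A, by gaps of 0.003 and 0.07. Parabola 3 end at 4.18 ± 0.33 and parabola 1 end at 4.04 ± 0.17 formed the lowest tier and overlapped with each other. The gap between tiers was 0.67 between the lowest level flight array and the highest parabola 1 start array, and 0.11 between the lowest parabola 10 end array and the highest parabola 3 end array. The lower boundary is therefore narrower than the SD of either tube beside it.

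The differences from level flight were largest at the ends of parabolas 1 and 3. Parabola 1 end was lower than level flight by 2.20 on the log2 scale, a 4.58-fold difference (parabola 1 end minus level flight -2.20, SE 0.18, 95% interval -2.57 to -1.82). Parabola 3 end differed by -2.06 (4.16-fold, interval -2.44 to -1.68) and parabola 10 end by -1.40 (2.65-fold, interval -1.78 to -1.03). Among early tubes, midpoint tube B differed by -1.17 (2.25-fold, interval -1.55 to -0.79), midpoint tube A by -1.01 (2.01-fold, interval -1.39 to -0.63) and parabola 1 start by -0.87 (1.82-fold, interval -1.24 to -0.49). The 6 differences share the same 3 level flight arrays, so they are not separate pieces of evidence. Without any one array of the pair compared, they ranged from -2.29 to -2.15 at parabola 1 end, from -2.16 to -1.87 at parabola 3 end and from -0.94 to -0.71 at parabola 1 start. A bulk level cannot tell fewer cells that hold a transcript from less of it per cell.

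Against all 17481 named probe sets, AT5G48430 stood near the bottom of the ordered differences in some tubes and not in others. Its difference from level flight was the most negative of all at parabola 3 end. It was number 3 from the bottom at parabola 1 end, and number 4 in midpoint tube B and at parabola 10 end. At parabola 1 start it was number 169 and in midpoint tube A number 131, in tubes where many other transcripts were lower too. All 3 arrays of every later tube lay below all level flight arrays, a pattern that 144 of the 17481 probe sets showed (0.824%). In single comparisons, the share of probe sets whose arrays lay wholly below level flight was 10.9% at parabola 1 start, 9.95% in midpoint tube A, 6.20% in midpoint tube B, 7.27% at parabola 1 end, 7.92% at parabola 3 end and 10.6% at parabola 10 end. The gene was chosen on these contrasts, and nothing is read from its place among them.

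In position within an array, the gene lay at the 86.2nd to 86.5th percentile of named probe sets in level flight. It lay at the 61.5th to 65.6th percentile at parabola 1 end, at the 60.3rd to 67.1st at parabola 3 end and at the 68.1st to 74.5th at parabola 10 end. It thus stayed above the middle of the named probe sets in all 21 arrays, and its low values are not those of a probe set at the bottom of the scale. The SD of its 7 tube means was 0.75, which was number 9 of 17481, against a median of 0.12 over all named probe sets. Its pooled SD between arrays of a tube was 0.25, against a median of 0.17. Level flight enters the SD of the tube means, and the gene was picked for its differences from level flight. Nothing is therefore read from its rank in that SD.

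**Figure D2:**
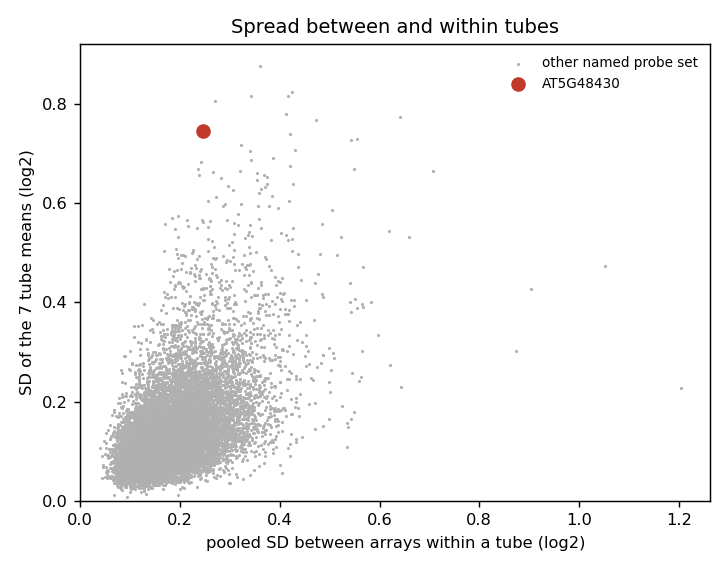
SD of the 7 tube means (y axis, log2) against the pooled SD between arrays within a tube (x axis, log2) for each of 17481 named probe sets in grey and AT5G48430 in red. AT5G48430 has an SD of 0.75 between tubes and 0.25 within tubes, and 8 probe sets have a larger SD between tubes. The gene was picked for its differences from level flight, which enter the SD between tubes.

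Comparisons among the parabola tubes place the low point at the ends of parabolas 1 and 3. Parabola 1 end lay below parabola 1 start by 1.33 (difference -1.33, interval -1.71 to -0.95), below midpoint tube A by 1.19 (-1.19, interval -1.57 to -0.81) and below midpoint tube B by 1.02 (-1.02, interval -1.40 to -0.65), with no overlap of arrays in any of these pairs. Parabola 3 end and parabola 1 end differed by 0.14 (interval -0.24 to 0.52). Parabola 10 end was higher than parabola 1 end by 0.79 (interval 0.41 to 1.17) and higher than parabola 3 end by 0.65 (interval 0.27 to 1.03). Of the 21 pairs of tubes, 16 had arrays that did not overlap, and 6 of these were the pairs with level flight for which the gene was picked. The same count over all pairs was not made for other probe sets, so nothing is read from it.

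Midpoint tubes A and B, the only pair fixed at the same stage, differed by 0.16 in this gene (interval -0.22 to 0.54), with overlapping arrays. Each of the 6 differences from level flight was larger than that in size. The gene was picked for those differences and not for this pair, so nothing is read from the comparison of sizes. A single pair of tubes gives no estimate of how much tubes vary, so the part of the tube in the differences from level flight was not tested. Leaf transcripts were also measured, since shoot material in the dissected roots would carry them. The Rubisco activase gene RCA averaged 4.44 to 4.70 in the 6 later tubes and 4.32 in level flight, and the light-harvesting gene LHCB4.1 averaged 4.12 to 4.56 in the later tubes and 3.93 in level flight. Both of 2 leaf transcripts were thus higher in each later tube mean, while across the 21 arrays their Pearson correlation with AT5G48430 was -0.11 and -0.14. None of their differences from level flight passed limma's test across all named probe sets. The lowest limma adjusted p was 0.083, for LHCB4.1 in midpoint tube A. These differences share the same 3 level flight arrays, whose SD was 0.33 for LHCB4.1. The part of shoot material in the result was not tested.

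No other measured member of the aspartyl protease family lay as far below level flight in any tube. Of 69 loci listed from general knowledge of the family, 62 had a named probe set, and the 61 without AT5G48430 were tested by limma across all named probe sets. In each of the 6 comparisons with level flight, no other member had a difference as negative as AT5G48430. The gene was picked for being low against level flight and the other members were not. Its place below them therefore follows in large part from that choice. The family medians lay between -0.05 and 0.07, and the medians over all named probe sets lay between -0.003 and 0.03. In midpoint tube A against midpoint tube B, where AT5G48430 was at 0.16, 45 of the 61 members lay below it and none passed limma's test (1.40% of all named probe sets passed), with 15 members at an unadjusted p under 0.05. The share of all named probe sets under that unadjusted cut was not counted, so nothing is read from the 15. Of the 61, 24 had a higher mean probe set signal than AT5G48430, and 37 lay above the median signal of genes with a probe set.

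Family calls were most numerous in midpoint tube A and at parabola 1 start. At parabola 1 start, 4 of 61 members rose and 3 fell, that is 11.5%, where 4.16% of all named probe sets passed (1.41% higher and 2.76% lower). In midpoint tube A, 6 rose and 6 fell, that is 19.7%, against 5.14% of all (1.65% higher and 3.48% lower). Both comparisons use the same level flight arrays. Without any one array, the counts ranged from 3 to 4 at parabola 1 start and from 5 to 9 in midpoint tube A. No member passed in midpoint tube B (0.0458% of all passed) or at parabola 3 end (0.458%), where 6 and 9 members had an unadjusted limma p under 0.05. The shares of all named probe sets are those past the adjusted threshold. Shares at the unadjusted cut were not counted, so nothing is read from the 6 and 9. A single member passed at parabola 1 end (1.14% of all) and another at parabola 10 end (1.45%).

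**Figure D3:**
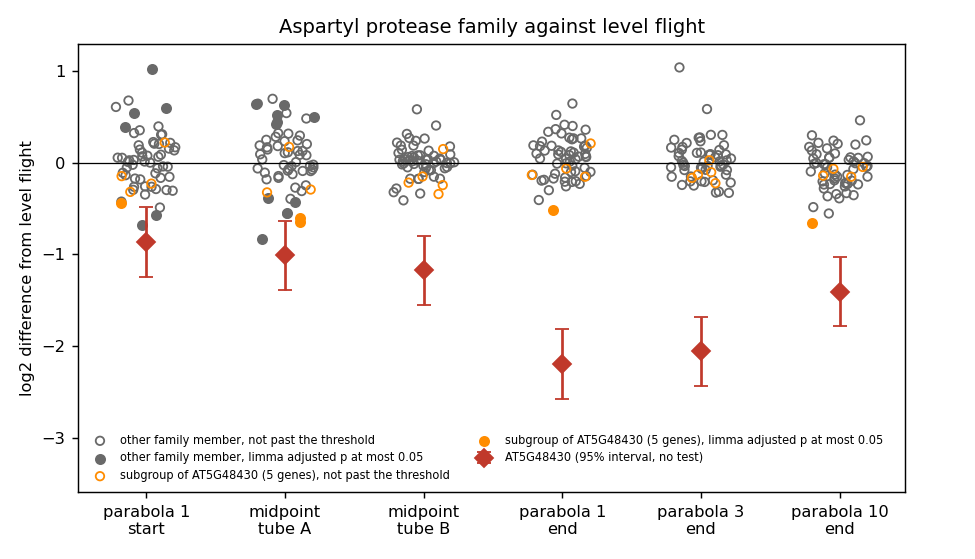
Difference from level flight (y axis, log2) for AT5G48430 (red, with 95% interval and no test) and for 61 other aspartyl protease family genes in the 6 later tubes (x axis). Filled circles passed limma's test at an adjusted p of 0.05, and orange marks the 5 genes of the same subgroup. AT5G48430, which was picked for being low against level flight, lies below every other member in each tube, from -0.87 at parabola 1 start to -2.20 at parabola 1 end.

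The 5 genes listed with AT5G48430 as its subgroup, the TAXI-like genes, were bright and differed less from level flight. Whether AT5G48430 or these genes act as proteases or as inhibitors was not tested. AT1G03220 fell in midpoint tube A, with 7.29, 7.55 and 7.51 in tube A and 8.08, 8.19 and 8.00 in level flight (difference -0.64, SE 0.11, limma adjusted p = 0.0012). Its arrays did not overlap, and the call held without any one of the 6 arrays. It also fell at parabola 1 start (-0.44, limma adjusted p = 0.027), a call that was lost without parabola 1 start replicate 1 or 2 or level flight replicate 1 or 2 (adjusted p up to 0.143 by limma over the alternatives). AT1G03230 fell in midpoint tube A to 7.82 ± 0.01, against 8.42 ± 0.12 in level flight (-0.60, SE 0.13, limma adjusted p = 0.0093, SD, n = 3 each). In midpoint tube B, fixed at the same stage, AT1G03220 averaged 7.75 and AT1G03230 averaged 8.18, and neither passed. The probe sequences were not used here, so shared signal between these and other similar genes was not tested.

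The subgroup gave 1 call at parabola 1 end, none at parabola 3 end and 1 at parabola 10 end. AT5G19120 fell at parabola 1 end, with 7.53, 7.47 and 7.36 there and 7.93, 7.99 and 8.00 in level flight (-0.52, SE 0.10, limma adjusted p = 0.014). This is the tube in which AT5G48430 was lowest, and its difference of -2.20 is on the same scale. The call was lost without parabola 1 end replicate 3 or level flight replicate 2 or 3 (limma adjusted p up to 0.108 over the alternatives). AT5G19110 fell at parabola 10 end, with 8.30, 7.88 and 8.29 there and 8.67, 8.75 and 9.02 in level flight (-0.66, SE 0.15, limma adjusted p = 0.031), and of the 6 fits without 1 array only that without parabola 10 end replicate 1 kept it (limma adjusted p up to 0.153 over the alternatives). AT5G19100 passed nowhere, with values from -0.14 to 0.22 against level flight. Across the 21 arrays, AT5G19120 had a Pearson correlation of 0.58 with AT5G48430 (Spearman 0.49), the highest of the 37 family members above the median signal, whose median was -0.04. The other 4 subgroup members had correlations between -0.11 and 0.12.

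Among the more distant family members, AT3G59080 fell at parabola 1 start to 5.57 ± 0.10, against 6.25 ± 0.01 in level flight (-0.68, SE 0.10, limma adjusted p = 0.00054, SD, n = 3 each), and by 0.55 in midpoint tube A (limma adjusted p = 0.0023). AT3G51330 fell in midpoint tube A to 7.11 ± 0.26, against 7.94 ± 0.14 in level flight (-0.83, limma adjusted p = 0.0025), and AT3G02740 fell at parabola 1 start (-0.57, limma adjusted p = 0.0025). These calls held without any one array. AT3G02740 also fell in midpoint tube A (-0.43), a call kept in 2 of the 6 fits that left out 1 array (limma adjusted p up to 0.084 over the alternatives). AT1G09750 rose at parabola 1 start (1.03, limma adjusted p = 0.018), AT3G54400 rose there (0.60) and in midpoint tube A (0.64), and AT5G10080 (0.63) and AT1G01300 (0.50) rose in midpoint tube A. Each of these rises was lost in at least 2 of the 6 fits that left out 1 array, with limma adjusted p up to 0.157 over the alternatives. AT5G10080 also rose at parabola 1 start (0.54), a call kept in 1 of the 6 fits (limma adjusted p up to 0.185 over the alternatives). AT5G10080 lay at 3.19 ± 0.22 in midpoint tube A and 2.56 ± 0.19 in level flight, near the array medians. Midpoint tube B, fixed at the same stage, averaged 2.64 for AT5G10080. For AT3G54400 tube B averaged 5.30, against 5.90 in tube A and 5.26 in level flight. For AT1G01300 it averaged 6.07, against 6.44 in tube A and 5.94 in level flight. AT3G51330 averaged 7.66 in tube B and AT3G59080 5.93, and no family member passed there. The 5 genes listed as phytepsins, among them APA1 (aspartic proteinase A1), gave no call, with differences from level flight between -0.35 and 0.11 and no limma adjusted p below 0.298. In these comparisons 0.0458% to 5.14% of all named probe sets passed, so few calls would be looked for in 5 genes.

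No gene measured on either side of AT5G48430 on chromosome 5 passed the test. The nearest 5 genes with a named probe set on each side, up to 14 annotated genes away, were not called by limma in any of the 7 comparisons, with 14 of 70 values at an unadjusted p under 0.05. How many of all named probe sets lay under that unadjusted cut was not counted, so nothing is read from the 14. Of all named probe sets, 0.0458% to 5.14% passed in these comparisons, so few calls would be looked for in a list this small. AT5G48490 (1.91), AT5G48420 (2.08), AT5G48360 (2.85) and AT5G48500 (2.91) had mean levels below the lowest array median of 2.92. AT5G48420, the next annotated gene on one side, had a mean level of 2.08 and a correlation of 0.34 with AT5G48430 over the 21 arrays. AT5G48440, the next on the other side, had a mean level of 4.82 and a correlation of -0.37. The lowest adjusted p was that of the glutamate receptor gene GLR1.2 (AT5G48400) in midpoint tube A against midpoint tube B (-0.73, limma adjusted p = 0.0512).

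The genes most like AT5G48430 were then sought among 8204 other genes with a probe set above the median signal, by Pearson correlation over the 21 arrays. The arrays share tubes and normalization, so these correlations describe the series and carry no test. The 10 highest ran from 0.73 to 0.85, against a median of -0.03, and only 2 genes exceeded 0.8. AT1G51790 came first (Pearson 0.85, Spearman 0.81), followed by AT1G52200 (0.84 and 0.78), AT5G19230 (0.77), AT5G64100 (0.77), AT1G14330 (0.75), AT3G23540 (0.75), AT3G29034 (0.74), AT2G44340 (0.74), AT3G11530 (0.73) and AAH (AT4G20070, 0.73), which encodes an allantoate amidohydrolase of ureide breakdown. All 10 were highest in level flight, 8 were lowest at parabola 1 end and 2 at parabola 3 end. They were taken for their likeness to AT5G48430, so these shared extremes follow in large part from that choice.

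The range of tube means of these genes was 0.34 to 1.51, smaller in each than the 2.20 of AT5G48430. AT1G51790 averaged 4.65 ± 0.20 in level flight, 4.05 ± 0.29 at parabola 1 start, 3.98 ± 0.14 in midpoint tube A, 4.20 ± 0.10 in midpoint tube B, 3.74 ± 0.05 at parabola 1 end, 3.80 ± 0.07 at parabola 3 end and 3.86 ± 0.28 at parabola 10 end (SD, n = 3 each). AT1G52200 averaged 6.85 ± 0.13 in level flight, 5.65 ± 0.22 at parabola 1 end and 6.21 ± 0.24 at parabola 10 end (SD, n = 3 each). AT1G52200 thus also lay higher at parabola 10 end than at parabola 1 end, whereas AT1G51790 stayed near its lowest mean. In these 2 genes and AT3G29034, the arrays of all 6 later tubes lay wholly below level flight. Of all 17481 named probe sets, 0.824% showed this pattern. The 10 genes were taken for likeness to AT5G48430, which has it, so nothing is read from their share.

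Much of the likeness lay between tubes. Within tubes, after each tube mean was subtracted, the correlations of the 10 genes with AT5G48430 ran from 0.01 (AT3G29034) to 0.59 (AT1G51790). Without parabola 3 end replicate 3 and level flight replicate 3, the arrays farthest from the median of AT5G48430, the correlations ran from 0.65 to 0.83. Without the 3 level flight arrays they ran from 0.45 to 0.76, and only 1 of the 10 genes was among the 10 most like it. By Spearman's rho 4 of the 10 were the same, and by the 7 tube means 1.

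**Figure D4:**
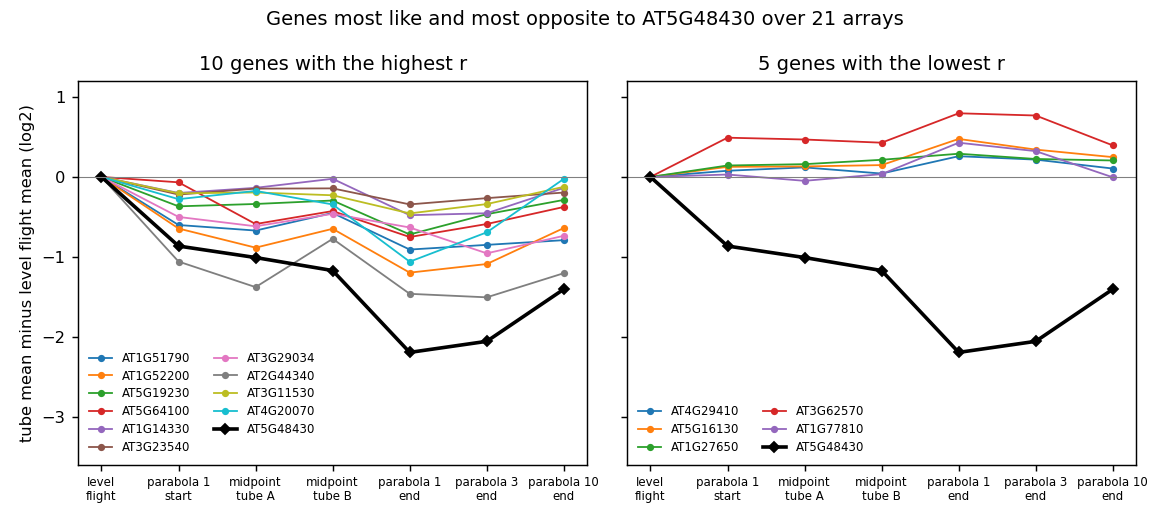
Tube mean minus level flight mean (y axis, log2) in flight order (x axis) for the 10 genes most like AT5G48430 (left) and the 5 most opposite (right), with AT5G48430 in black. Lines join separate tubes and do not follow the same plants. The 10 genes span 0.34 to 1.51 between their highest and lowest tube, and AT5G48430 spans 2.20.

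The 5 genes with the lowest correlation were AT4G29410 (-0.80), AT5G16130 (-0.79), ATU2AF35A (AT1G27650, -0.77), which encodes the small subunit of the splicing factor U2AF, AT3G62570 (-0.76) and AT1G77810 (-0.75). All 5 had their highest tube mean at parabola 1 end, where AT5G48430 had its lowest, and 4 had their lowest in level flight. This too follows in large part from how they were taken. Their tube means spanned 0.26 to 0.80, less than the span of AT5G48430. AT3G62570 averaged 4.11 at parabola 1 end and 3.31 in level flight.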

How the data were processed

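Root RNA (100 ng per array, per the labels' protocols) was labelled for Affymetrix AraGene 1.0 ST arrays. Values were deposited by the authors on a log2 scale. Per the submitters' processing notes, their tools included oligo, RMA, limma and R 4.0.0, with TAIR10 as the build. Of 38408 probe sets, 17481 were paired with a gene by the platform annotation, 16722 with 1 gene, of which 16574 matched RefSeq (TAIR10.1) by Entrez identifier. A gene with several probe sets was represented by the brightest.

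All named probe sets were fitted by limma 3.58.1 in R 4.3.3 (lmFit and eBayes, 7 group means, two-sided), with Benjamini-Hochberg adjustment within a comparison and a threshold of 0.05; the fit and the likeness ranking were tested on simulated data. Named were every listed subgroup member, up to 4 other family members per comparison by smallest p, the 10 most positively and 5 most negatively correlated genes, and 5 neighbours a side. The gene and lists were chosen with earlier results of these data known; the family list was drawn up by locus from general knowledge. Alternatives were a variance trend, a brightness filter, other array sets, array weights, cyclic loess, median centring, all probe sets and the replicate number as a block. No protein or promoter sequence was used here.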

Additional observations from a re-analysis of the deposited data

How the results depend on the processing

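The 7 differences of AT5G48430 (6 against level flight and tube A against tube B) kept their sign and moved by less than the pooled SD of 0.25 in all 56 alternatives, which were cyclic loess, median centring and leaving out each array. With median centring and cyclic loess, parabola 1 end against level flight lay between -2.23 and -2.22. Without single arrays, the differences not yet given ranged from -1.07 to -0.96 in midpoint tube A, -1.37 to -1.06 in midpoint tube B, -1.52 to -1.24 at parabola 10 end and 0.05 to 0.36 for tube A against tube B.

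Family calls depended more on the processing, and the cause was not tested beyond the number of arrays or probe sets in a fit. With only the 6 arrays compared, calls were 4 at parabola 1 start, 5 in midpoint tube A, 0 at parabola 1 end and 0 at parabola 10 end. With all probe sets they were 4 at parabola 1 start and 0 at parabola 10 end. A variance trend and a brightness filter each gave 2 at parabola 1 end, 1 at parabola 3 end, 2 at parabola 10 end and 1 for tube A against tube B. Array weights gave 2 at parabola 1 end and 1 at parabola 3 end, and cyclic loess 2 at parabola 1 end and 1 for tube A against tube B. Without single arrays, calls ranged from 3 to 4 at parabola 1 start, 5 to 9 in midpoint tube A and 0 to 2 at both parabola 1 end and parabola 10 end. Of 16 calls of named family genes, 6 held in every alternative run and none reversed. The neighbours gave 0 calls in 85 of 91 alternatives, added after seeing the data, and 1 in the other 6.

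Of the 10 genes most like AT5G48430, 4 were shared with Spearman's rho, 1 with the 7 tube means and 1 without level flight. With the replicate number as a block, family calls were 6 at parabola 1 start and 12 in midpoint tube A, and no other family count changed. Deviations of same-numbered arrays correlated between -0.09 and 0.14, so the numbers were not treated as pairs.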
